A study of Mus musculus with 4 samples.

Results

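Actin cytoskeleton and motility genes were examined as a group of 49 named genes, chosen by symbol from the 31017 genes of the count tables, and all 49 passed the filter on low counts. RNA was sequenced from FACS-sorted marrow monocytes, 2 libraries from an aged group (18 months) and 2 from a young group (3 months), all mice being wild type by their labels and of strain C57BL/6. All 4 libraries carry atherosclerosis as their disease label, and the labels do not say whether donors had lesions, or whether the libraries of one age came from separate animals. The p-values therefore cover library-to-library spread alone, possibly of technical origin. The series title places the data in work on marrow age and on clones of smooth muscle origin in plaques.

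Monocytes leave the marrow and enter tissue by crawling, and crawling rests on the growth of actin filaments at the cell front. The WASP and WAVE nucleation promoters activate the Arp2/3 complex to branch new filaments from old ones. Profilin and thymosins hold the monomer pool, cofilin and gelsolin sever filaments, capping protein stops their growth, and non-muscle myosin pulls on them at the cell rear. Serum response factor (SRF) and its actin-sensing coactivators are known to bind CArG boxes in the promoters of several actin genes.

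Related genes of the group were compared by sequence, since counting may not separate reads from stretches that transcripts share. Actg1 and Actb encode gamma- and beta-actin and were 88.7% identical over 1128 coding bases, with a longest identical run of 62 bases. The first 60 coding bases of both are shown because the proteins differ near their start, with the 9 bases that differ in capitals (GENCODE M21 transcripts, chromosome 11 for Actg1 and 5 for Actb):
Actg1: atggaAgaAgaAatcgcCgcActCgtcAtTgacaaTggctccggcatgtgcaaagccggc
Actb: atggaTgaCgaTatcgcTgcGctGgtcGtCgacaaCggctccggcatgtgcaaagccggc

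Tmsb10 and Tmsb4x, the thymosins that bind actin monomers, were further apart, at 70.4% over 135 coding bases. Their longest identical run was 10 bases. Their whole coding sequences are shown because Tmsb10 passed the test described below and Tmsb4x did not, with the 40 bases that differ in capitals (chromosome 6 for Tmsb10 and X for Tmsb4x):
Tmsb10: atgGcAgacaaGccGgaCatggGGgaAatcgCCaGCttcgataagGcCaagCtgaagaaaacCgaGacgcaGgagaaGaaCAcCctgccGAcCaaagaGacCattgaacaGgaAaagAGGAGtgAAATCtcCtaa
Tmsb4x: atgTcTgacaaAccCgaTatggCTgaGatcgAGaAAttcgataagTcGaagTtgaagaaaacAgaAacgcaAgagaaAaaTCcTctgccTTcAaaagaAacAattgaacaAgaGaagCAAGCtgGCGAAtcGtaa

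Myl12b and Myl12a, regulatory light chains of non-muscle myosin, were the most alike of 9 pairs, with 96.5% identity and an identical run of 105 bases. Windows of 50 bases from each gene's longest coding transcript were also looked up in the transcripts of all other genes. Of the 49 genes, 24 had no window elsewhere and 12 had more than 10% of their windows elsewhere. Those 12 included Capza1 with 73.8%, Actg1 with 56.7%, Actr3 with 49.8%, Tmsb10 with 43.5%, Myl6 with 18.5%, Actb with 14.2% and Arpc1b with 12.8%. The gene sharing most windows was Gm3608 for Capza1, Gm12715 for Actg1, Gm8822 for Actr3, Gm9844 for Tmsb10, Gm5526 for Myl6 and Gm5637 for Arpc1b. Myl12a and Myl12b shared most with each other, and Tmsb4x had no window elsewhere. Reads from such windows may be uncertain, but windows count sequence, so the effect on the counts is not known. How such reads were counted is not given in the sources used here.

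Aged replicate 1 held 24918091 counts and aged replicate 2 held 21837261, while young replicate 1 held 34278754 and young replicate 2 held 20159129. Counts were scaled by library size and TMM factors to CPM, and the ages were compared with the quasi-likelihood test of edgeR with Benjamini-Hochberg adjustment over all 12035 genes tested, at a threshold of 0.05. Fold changes are given as log2 of aged over young with their standard error. Lyz2, the lysozyme gene of myeloid cells, stood at 34835 and 34698 CPM in aged and 32747 and 35199 CPM in young libraries. Neutrophil genes, 11 listed, summed to 32421 and 33046 CPM in aged and 33844 and 32541 CPM in young libraries. Among them Ltf and Ngp rose, and Elane, Mpo, Cxcr2 and S100a8 fell. Of 8 classical monocyte markers 5 fell, with a summed level of 15127 and 15367 CPM in aged against 19138 and 19399 CPM in young libraries, and of 14 non-classical markers 10 rose (2442 and 2279 against 1842 and 1774 CPM). Of 10 tested B-lineage markers 6 rose (1089 and 1087 against 724 and 732 CPM over all 11 listed), and of 15 early response genes 12 rose (3645 and 3762 against 1848 and 1824 CPM). Nr4a1 is counted in both the non-classical and the early response list. Over all tested genes 2.87% were called higher and 2.89% lower in aged libraries. None of 4 tested platelet markers passed, at a summed 4.79 and 5.02 CPM over all 9 listed in aged and 2.69 and 2.46 CPM in young libraries, with Gp1bb at 0 counts in all 4. The part of these markers in the results below was not tested, and in bulk samples fewer cells of a type and less RNA per cell cannot be told apart.

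The summed share of the actin genes did not separate the ages, and their levels ran from Evl at a mean of 37.1 CPM to Actb at 12614 CPM. Together they took 6.48% and 6.84% of all counts in aged libraries, against 6.38% and 7.23% in young libraries. The groups overlapped (exact permutation test, two-sided, p = 1, where 0.333 is the smallest p that 2 libraries against 2 allow). Most of the spread came with Actb, which made up 17.1% and 20.3% of the group's counts in aged libraries and 13.7% and 23.0% in young ones. Without Actb the groups no longer overlapped, at 5.38% and 5.45% in aged against 5.51% and 5.56% in young libraries (exact p = 0.333).

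Of the 49 genes 1 rose and 4 fell in aged monocytes. Arpc1b rose, and Tmsb10, Myl6, Actg1 and Flna fell. The 5 genes are 10.2% of the group, beside 5.77% of all tested genes (2.87% higher and 2.89% lower). Abundant genes are called more often: among the 3986 tested genes of at least 50 CPM, 10% were called, beside 5 of the group's 48 at that level, which is 10.4%. The share of calls in the group was thus close to that of all tested genes of at least 50 CPM, which include the group's own 48. This level is a floor and not a match of abundance. The median log2 change was -0.0038, beside -0.0044 over all tested genes, and the 49 values ran from -0.36 to 0.27, with 24 positive and 25 negative. The groups did not overlap in 27 of the 49 genes (55.1%), 16 with aged above and 11 with aged below young, beside 51.6% of all tested genes. At 50 CPM or more it was 26 of 48 actin genes (54.2%), beside 59.4% of tested genes at that level.

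No gene of the group moved by as much as 1.5-fold, and for 48 of the 49 the 95% interval of the change lay inside 1.5-fold either way. The exception was Was, with an interval of -0.66 to 0.012. For Actb the interval was -0.54 to 0.47, although its young libraries stood at 8687 and 16846 CPM. The intervals use a spread that the fit shares in part across genes, from 2 libraries per age. They therefore do not exclude a change of 1.5-fold in a gene as variable as Actb.

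**Figure D1:**
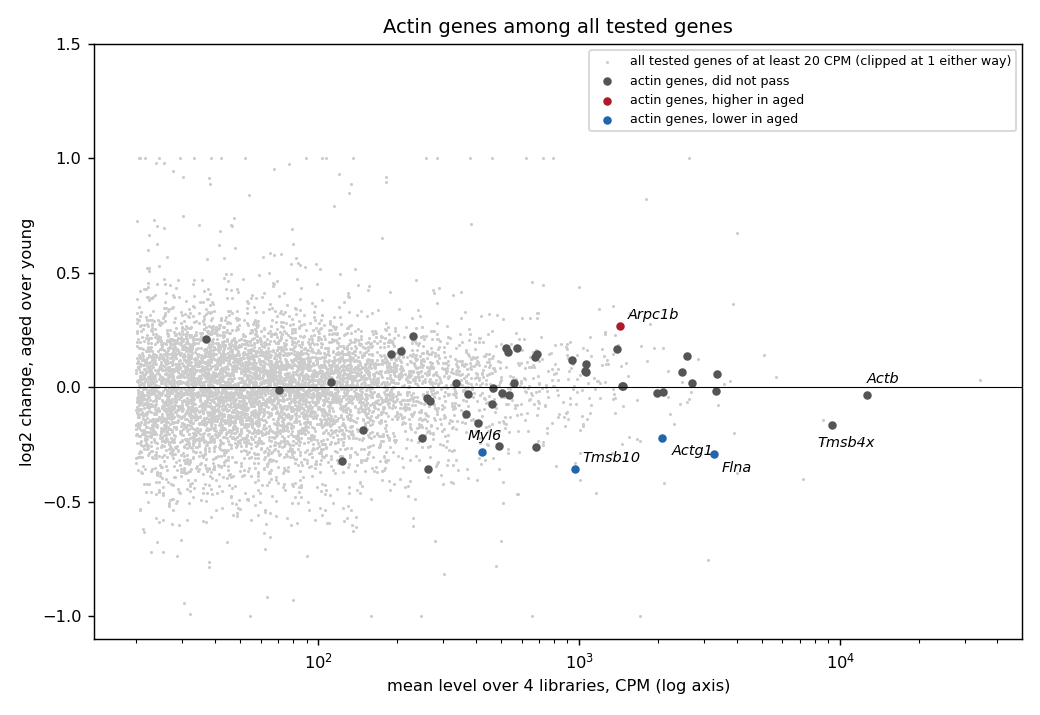
Mean level over the 4 libraries (CPM, log axis) against the log2 change of aged over young, for the better expressed tested genes in grey, with values clipped at 1 either way, and the 49 actin genes as larger points. The actin genes sit within -0.36 and 0.27, with Arpc1b the one rise and Tmsb10, Myl6, Actg1 and Flna the falls.

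Levels per length, as CPM per kilobase of exon, spanned 537-fold between the highest and the lowest gene. Length was that of all annotated exons of a gene merged, and not that of a transcript, so the order depends on the annotation. Pfn1 had 2405 bases of merged exon, beside 812 windows of 50 bases in its longest coding transcript. For Coro1a these were 2783 and 1698. Tmsb4x was highest on this scale, at 6493 and 6277 CPM per kilobase in aged and 6986 and 7340 in young libraries. Actb came next, at 4105 and 5198 in aged and 3243 and 6288 in young libraries. Tmsb4x was above Actb in each of the 4 libraries, although the ranges of the genes over the libraries overlapped. Coro1a, the leukocyte coronin that stabilises filaments, followed at 1128 and 1261 in aged and 1211 and 1206 in young libraries, ahead of Pfn1 (1080 and 1173 against 956 and 1092) and Cfl1 (917 and 997 against 932 and 959). On this scale Coro1a stood above Pfn1 and Pfn1 above Cfl1 within each of the 4 libraries. The ranges of these neighbours over the libraries overlapped, and by transcript length their order may differ. At the other end stood Elmo1 and Evl, with means over the 4 libraries of 15.1 and 12.6 CPM per kilobase.

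**Figure D2:**
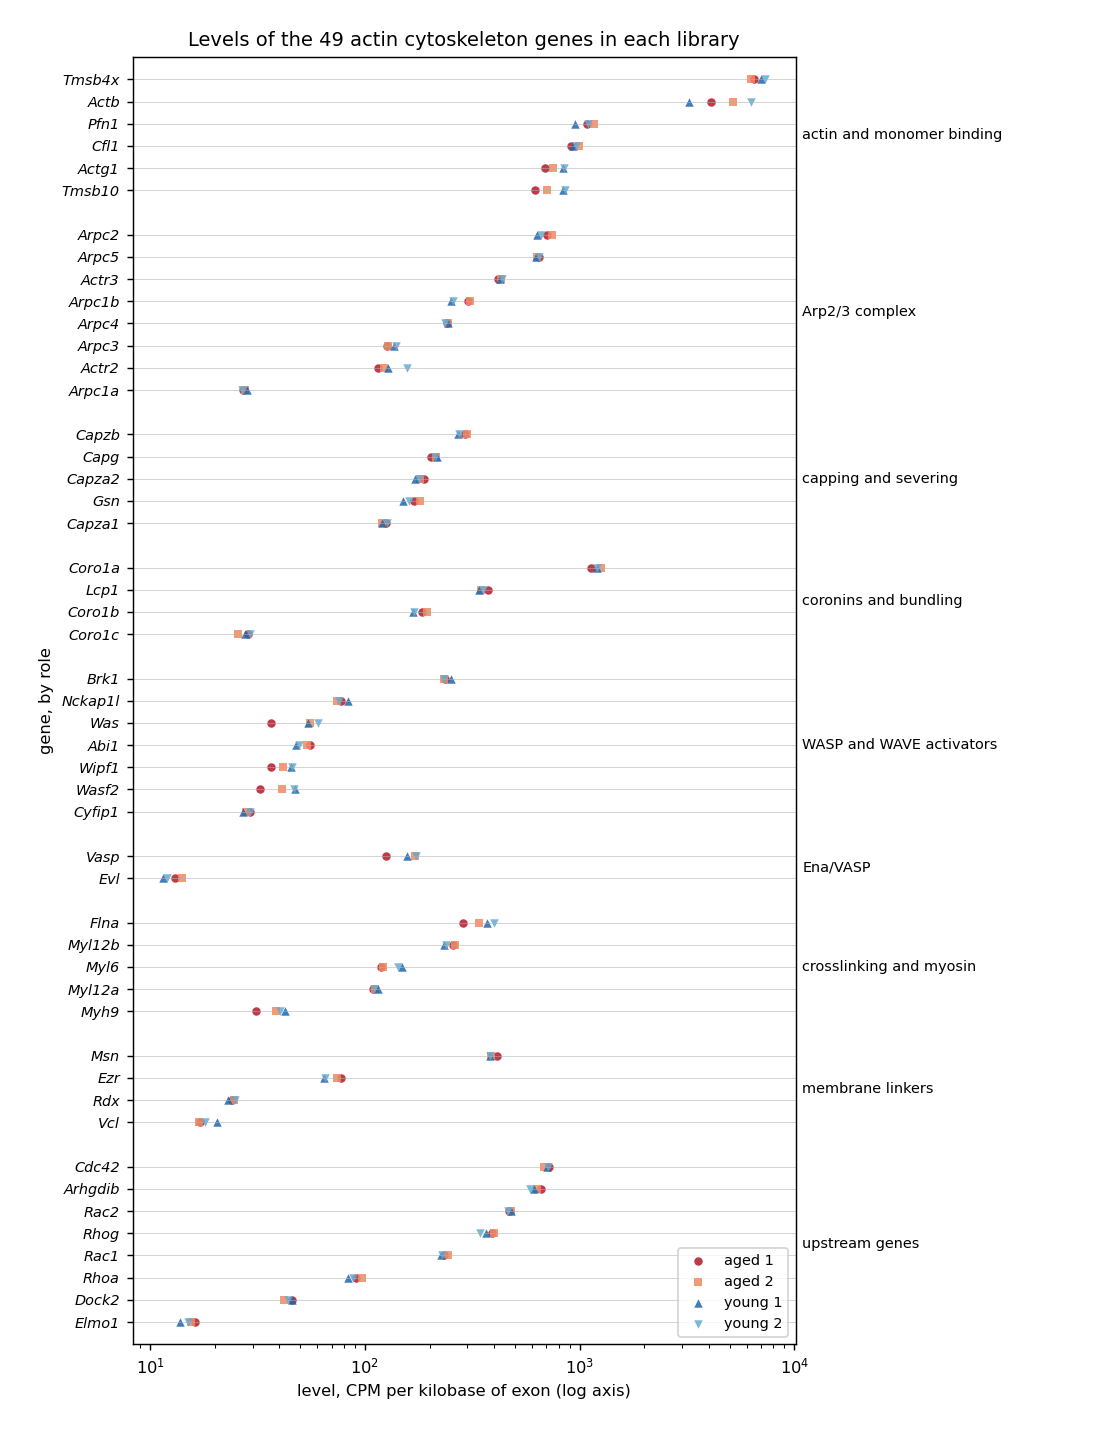
Level of each of the 49 genes in each of the 4 libraries (CPM per kilobase of merged exon, log axis), grouped by role and sorted by mean within a role. Tmsb4x and Actb lead at means of 6774 and 4708 CPM per kilobase, and Actb shows the widest spread between libraries of one age.

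Among the genes of actin itself and of its monomer pool, Tmsb10 and Actg1 fell and the other 4 did not pass. Tmsb10 stood at 788 and 898 CPM in aged libraries, against 1071 and 1088 CPM in young libraries. Both aged libraries were below both young ones, and the log2 change was -0.36 ± 0.065 (edgeR adjusted p = 0.0109; chromosome 6, 72957347 to 72958748 on GRCm38). Actg1 stood at 1841 and 1994 CPM in aged libraries, against 2221 and 2255 CPM in young libraries. Again the groups did not overlap (-0.22 ± 0.054, adjusted p = 0.0407; chromosome 11, 120345690 to 120348542). The call of Tmsb10 was lost without young replicate 1 (adjusted p = 0.0511), and that of Actg1 when aged replicate 1 (0.0769), young replicate 1 (0.148) or young replicate 2 (0.0936) was left out.

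Actb was the gene with the widest spread. It stood at 10997 and 13926 CPM in aged libraries, against 8687 and 16846 CPM in young libraries, so that both aged values lay between the young ones. The log2 change was -0.035 ± 0.23 (adjusted p = 0.949; chromosome 5, 142903115 to 142906754). The young libraries differed by 0.96 on the log2 scale, the 3rd largest gap between young libraries among 3986 genes of at least 50 CPM, whose median gap was 0.067. The aged libraries differed by 0.34 in the same sense, replicate 2 above replicate 1, where 3.76% of those genes had a larger gap and the median was 0.074. The log2 change was 0.52 without young replicate 2 (adjusted p = 0.00387) and -0.43 without young replicate 1 (adjusted p = 0.0529). In every fit that leaves out a library, one age has a single library that is assumed to vary like the pair of the other age. The direction for Actb thus depended on which young library was used. Counting error is far smaller than this gap, since Actb alone took 0.876% to 1.67% of all counts.

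**Figure D3:**
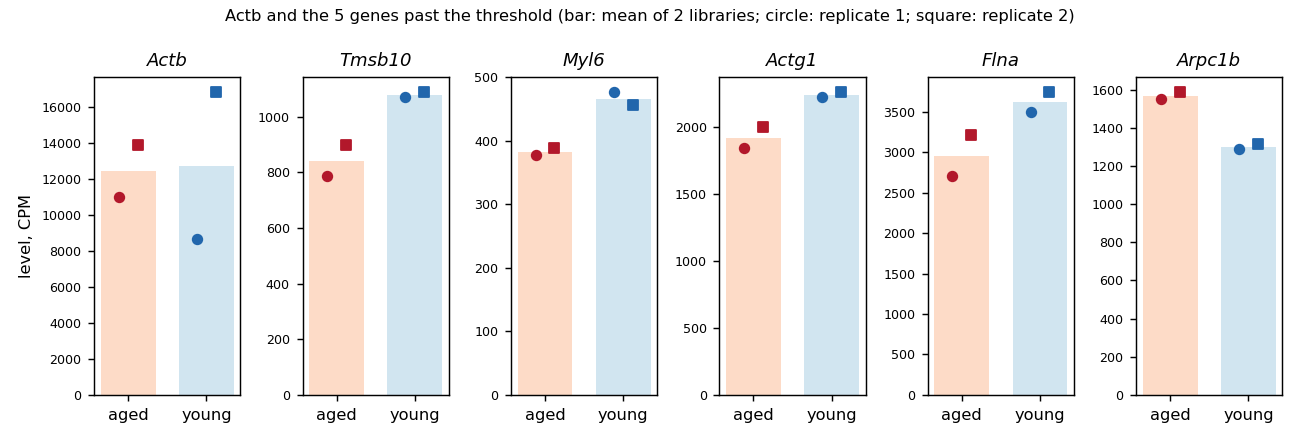
Level (CPM, linear axes from 0) of Actb and of the 5 genes past the threshold, with aged libraries left and young libraries right in each panel, bars for the mean of 2 libraries, circles for replicate 1 and squares for replicate 2. The aged points of Actb lie between the young ones at 8687 and 16846 CPM, while the groups do not overlap for Tmsb10, Myl6, Actg1, Flna and Arpc1b.

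Tmsb4x, the main monomer-sequestering thymosin of blood cells, stood at 8902 and 8606 CPM in aged and 9578 and 10063 CPM in young libraries. The groups did not overlap, but the difference did not pass (-0.17 ± 0.049, adjusted p = 0.0773, chromosome X, 167207093 to 167209315). Tmsb4x passed with limma-voom (adjusted p = 0.0259) and, in edgeR, with the replicate number as a block (0.0113). Its change was negative in all 14 alternatives. Pfn1, which feeds monomers to growing filament ends, stood at 2597 and 2820 CPM in aged and 2300 and 2627 CPM in young libraries, with overlap (0.14 ± 0.068, adjusted p = 0.282; chromosome 11, 70651850 to 70654644). Cfl1, the cofilin that severs and depolymerises filaments, stood at 2607 and 2836 CPM against 2650 and 2726 CPM (0.018 ± 0.055, adjusted p = 0.891; chromosome 19, 5490455 to 5495201). Exons of Cfl1 overlap those of Snx32 on the other strand over 16.5% of their length.

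In the Arp2/3 complex 1 of 8 subunit genes rose and none fell. Arpc1b, the isoform of the WD-repeat subunit that predominates in blood cells, stood at 1549 and 1586 CPM in aged libraries, against 1290 and 1313 CPM in young libraries. Both aged libraries were above both young ones, and the change was 0.27 ± 0.049, or 1.20-fold (edgeR adjusted p = 0.0118; chromosome 5, 145114215 to 145130705). The call was lost without young replicate 1 (0.0863). Exons of Arpc1b overlap those of Pdap1 on the other strand over 18.2% of their length, and without the strand setting of the counting these reads cannot be assigned. Its paralog Arpc1a was far lower, at 69.4 and 70.9 CPM in aged and 72.4 and 69.0 CPM in young libraries (-0.012 ± 0.075, adjusted p = 0.948).

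The other subunits did not pass. Arpc2, part of the complex's core, stood at 1433 and 1514 CPM in aged and 1290 and 1337 CPM in young libraries, without overlap (0.17 ± 0.053, adjusted p = 0.0993). Arpc2 passed without a low-count filter (edgeR adjusted p = 0.0136) and with the replicate number as a block (0.017). Actr2, one of the actin-related subunits that form the branch, stood at 602 and 638 CPM against 666 and 822 CPM (-0.26 ± 0.086, adjusted p = 0.109). Its aged values were the lower ones, and it passed without young replicate 1 (-0.41, adjusted p = 0.0148). Arpc3 was 351 and 354 CPM in aged and 378 and 386 CPM in young libraries (adjusted p = 0.249). Actr3, Arpc4 and Arpc5 had log2 changes between -0.027 and 0.017 with groups that overlapped.

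Neither capping and severing genes nor coronins and bundling genes passed the main test. Gsn, the severing protein gelsolin, had the smallest p of the first set, at 536 and 570 CPM in aged and 477 and 504 CPM in young libraries (0.17 ± 0.057, adjusted p = 0.113). Capzb, the beta subunit of capping protein, stood at 963 and 990 CPM against 891 and 907 CPM (0.12 ± 0.051, adjusted p = 0.208). The alpha subunits Capza1 and Capza2 and the macrophage capping protein gene Capg lay between -0.036 and 0.067. Coro1b was 594 and 623 CPM in aged and 537 and 544 CPM in young libraries (0.17 ± 0.053, adjusted p = 0.0953). Without a low-count filter Gsn (edgeR adjusted p = 0.0418) and Coro1b (0.0417) passed as higher. With the replicate number as a block they passed as well (0.0181 and 0.0197). Coro1a, Coro1c and Lcp1, the leukocyte plastin that bundles filaments, overlapped between the ages, with changes of -0.017, -0.060 and 0.057.

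Of the 7 WASP and WAVE genes none passed, although the nucleation promoters themselves had the largest negative values of the set. Wasf2, the WAVE protein of leukocytes, stood at 204 and 258 CPM in aged libraries, against 297 and 294 CPM in young libraries. Both aged values were below the young ones, and the change was -0.36 ± 0.093 (edgeR adjusted p = 0.0508). Was, the haematopoietic WASP gene, stood at 86.7 and 132 CPM in aged and 129 and 144 CPM in young libraries, with overlap and a low value in aged replicate 1 (-0.32 ± 0.15, adjusted p = 0.251). Wipf1, the partner that protects WASP from degradation, stood at 216 and 245 CPM against 268 and 270 CPM (-0.22 ± 0.068, adjusted p = 0.0884). Abi1, a WAVE complex subunit, was 223 and 216 CPM in aged and 194 and 199 CPM in young libraries (0.16 ± 0.058, adjusted p = 0.147). The other WAVE complex subunits, Cyfip1, Nckap1l and Brk1, lay between -0.073 and 0.020 and overlapped.

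The values of these nucleation promoters were lower in aged replicate 1 than in aged replicate 2. Between the aged libraries Was differed by 0.61 and Wasf2 by 0.34 on the log2 scale, gaps exceeded by 0.552% and 3.81% of genes of at least 50 CPM. Against the young pair, aged replicate 1 alone gave -0.66 for Was and -0.54 for Wasf2, and aged replicate 2 alone gave -0.049 for Was and -0.20 for Wasf2. The adjusted p without aged replicate 2 was 0.00122 for Was and 0.000721 for Wasf2, with the spread taken from the young pair, and without aged replicate 1 it was 0.801 for Was and 0.0883 for Wasf2. Vasp, which protects growing filament ends from capping, stood at 328 and 447 CPM in aged and 413 and 452 CPM in young libraries (-0.16 ± 0.12, adjusted p = 0.475), again with aged replicate 1 the lowest. Its relative Evl was scarce and higher in both aged libraries, at 38.4 and 41.2 CPM against 33.6 and 35.1 CPM (0.21 ± 0.093, adjusted p = 0.225). Between the aged libraries the log2 ratio correlated with the GC content of 11910 genes at r = 0.251, and between the young libraries at r = 0.0085. These are correlations across genes of the same libraries, which are not independent replicates. The part of GC content in the gaps of these genes between libraries was not tested. In a fit across ages that took GC and length into account, Wasf2 passed (-0.37, edgeR adjusted p = 0.0248). Was, Wipf1 and Vasp did not pass in that fit. Wasf2 also passed with DESeq2 (0.0143) and with limma-voom (0.0342).

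**Figure D4:**
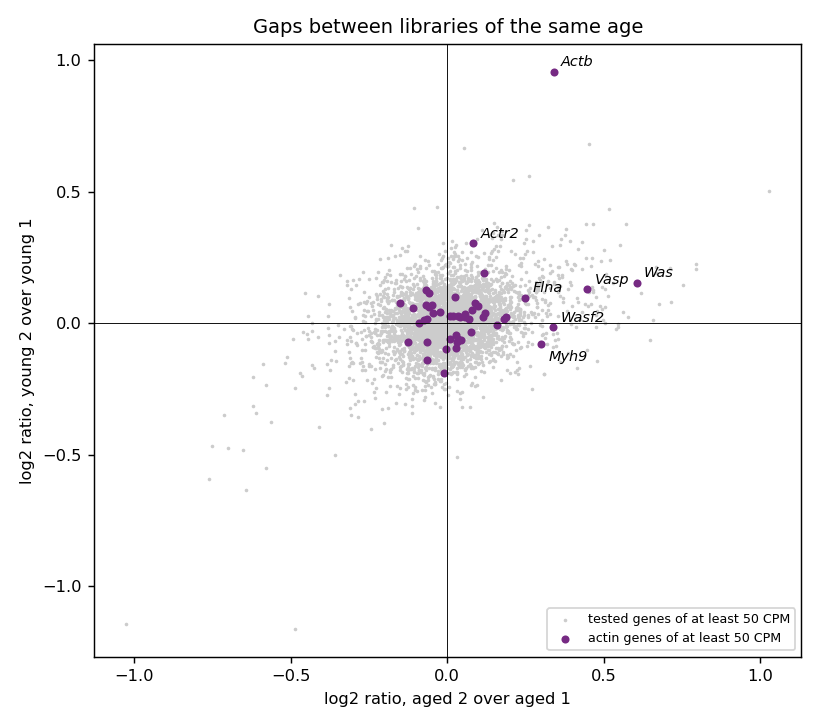
Log2 ratio of aged replicate 2 over aged replicate 1 (horizontal) against that of young replicate 2 over young replicate 1 (vertical), for tested genes of at least 50 CPM in grey and actin genes in purple. Actb stands apart at 0.34 and 0.96, and Was, Vasp, Wasf2, Myh9 and Flna lie to the right, above the aged median gap of 0.074.

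Among crosslinking and myosin genes 2 of 5 fell. Flna, filamin A, which crosslinks filaments and ties them to integrins, stood at 2700 and 3210 CPM in aged libraries, against 3497 and 3740 CPM in young libraries. The groups did not overlap, and the change of -0.29 ± 0.075 passed narrowly (edgeR adjusted p = 0.0499; chromosome X, 74223461 to 74249820). It did not pass when aged replicate 1 (0.0652), young replicate 1 (0.0842) or young replicate 2 (0.112) was left out. Myl6, the essential light chain of non-muscle myosin, stood at 377 and 388 CPM in aged and 476 and 455 CPM in young libraries. Both aged values were below both young ones (-0.28 ± 0.055, adjusted p = 0.0145; chromosome 10, 128490860 to 128494145), and the call was lost without young replicate 1 (0.156).

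Myh9, the heavy chain of non-muscle myosin IIA, stood at 402 and 496 CPM in aged and 551 and 521 CPM in young libraries (-0.26 ± 0.086, adjusted p = 0.116). It passed without aged replicate 2 (-0.42, adjusted p = 0.00361). The regulatory light chain Myl12b was 716 and 725 CPM in aged and 644 and 658 CPM in young libraries (0.15 ± 0.051, adjusted p = 0.129), and Myl12a lay at -0.031 with overlap. Because these genes are near-identical neighbours, their split is uncertain.

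None of the 4 membrane linkers passed. Ezr, ezrin, which ties filaments to the membrane, stood at 255 and 243 CPM in aged libraries, against 212 and 215 CPM in young libraries, without overlap (0.22 ± 0.058, adjusted p = 0.0516). It passed with upper-quartile scaling (0.0439), with genes of at least 5 CPM (0.0449) and with limma-voom (0.0422). Its relatives Msn, the main member of this family in leukocytes, and Rdx lay at 0.065 and 0.022. Vcl, vinculin, which links adhesions to actin, stood at 139 and 138 CPM against 168 and 148 CPM (-0.19 ± 0.073, adjusted p = 0.176; chromosome 14, 20929398 to 21033676). Exons of Vcl overlap those of Ap3m1 on the other strand over 25.5% of their length.

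The remaining 8 genes act upstream of filament growth and contraction, and none passed. Rhog stood at 554 and 565 CPM in aged and 519 and 485 CPM in young libraries (0.16 ± 0.056, adjusted p = 0.139). Rhoa, the switch for myosin contraction, was 681 and 728 CPM against 628 and 658 CPM (0.13 ± 0.057, adjusted p = 0.217). Elmo1, which works with DOCK proteins to activate Rac, was 204 and 195 CPM against 173 and 189 CPM (0.14, adjusted p = 0.242). It passed with GC content and length offsets (0.25, adjusted p = 0.0431). The GDP dissociation inhibitor Arhgdib was 1125 and 1077 CPM against 1051 and 999.7 CPM (adjusted p = 0.305). Rac1, Rac2, Cdc42 and Dock2 lay between -0.023 and 0.070. Of the exon length of Rac1 51.4% overlaps exons of Daglb on the other strand.

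**Figure D5:**
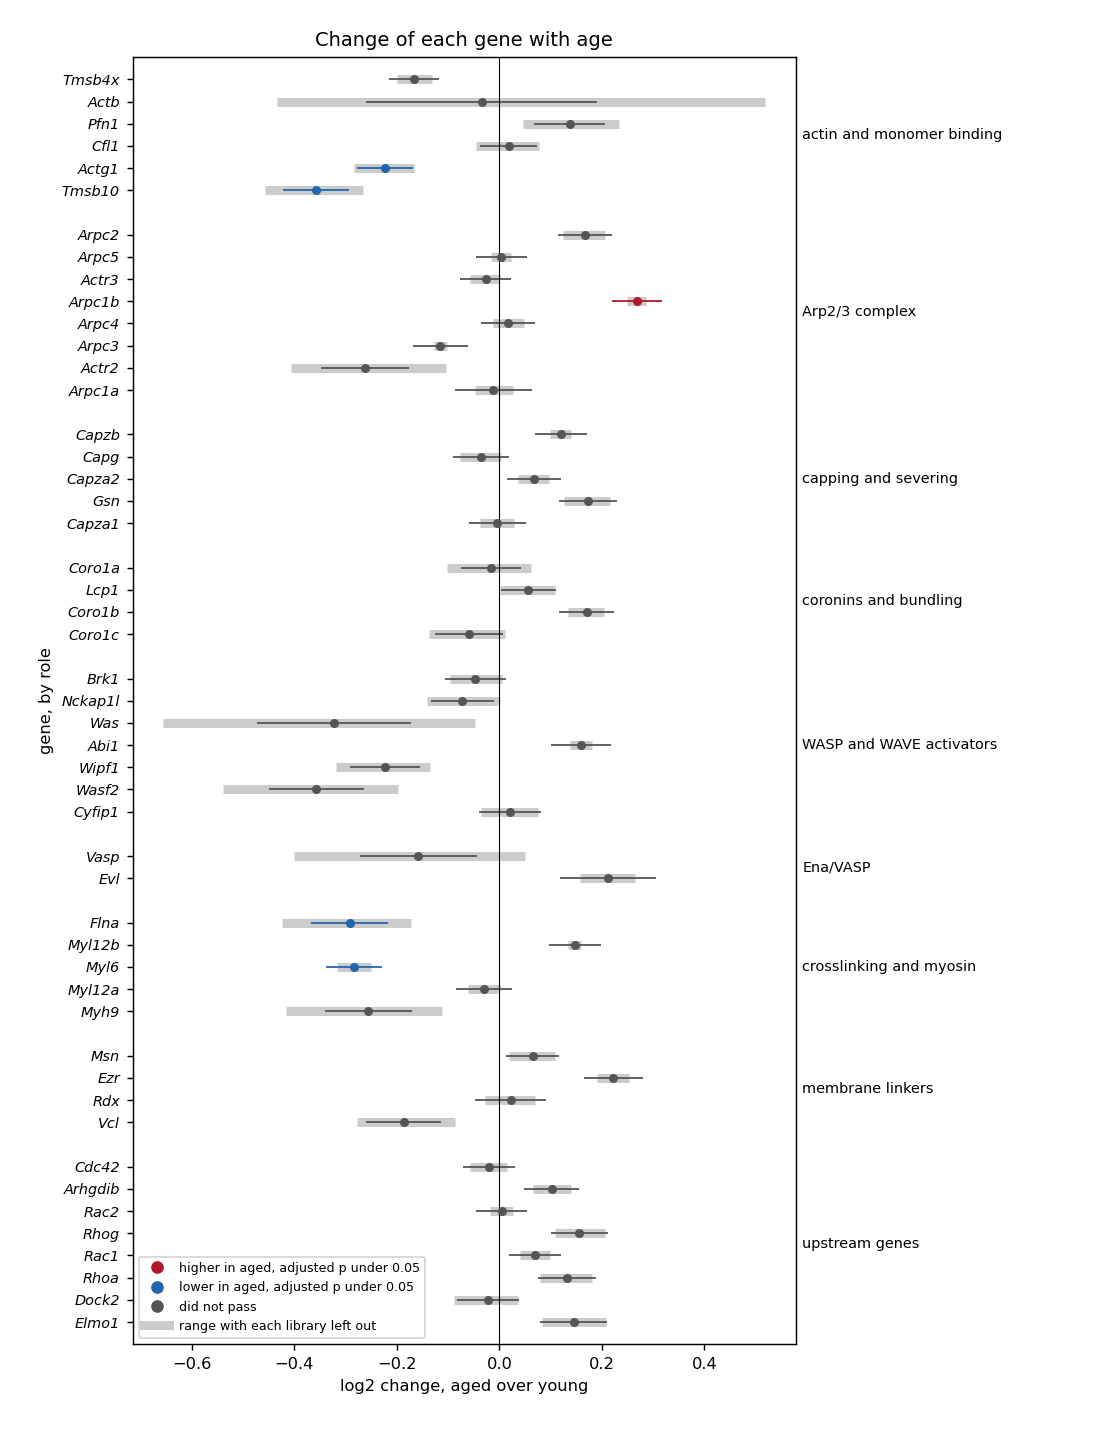
Log2 change of aged over young for each of the 49 genes by role, with its standard error (n = 2 libraries per age) as a thin line and the range over the 4 fits that each leave out 1 library as a grey bar. Red and blue mark the genes past the threshold, and the widest grey bars are those of Actb, from -0.43 to 0.52, and Was, from -0.66 to -0.049.

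Shares within 9 pairs of related genes were compared as percent of the pair's counts, which are not corrected for length. The share of Arpc1a in Arpc1a plus Arpc1b was 4.29% and 4.28% in aged and 5.32% and 4.99% in young libraries. Myl12b made up 66.1% and 65.9% of Myl12b plus Myl12a in aged and 62.5% and 63.9% in young libraries. Ezr made up 8.88% and 9.02% of Ezr plus Msn in aged and 8.05% and 8.14% in young libraries. Actg1 made up 14.3% and 12.5% of Actg1 plus Actb in aged and 20.4% and 11.8% in young libraries, a range set by Actb. No pair passed, since 2 libraries against 2 cannot give an exact two-sided permutation p below 0.333 (0.428 adjusted over the 9 pairs). The 95% Wilson intervals, which cover counting error only and not the spread between libraries, were at most 0.657 percentage points either side.

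Promoters, as 250 bases before to 50 after a start site, were found in the RefSeq table (GRCm38.p6) for 43 of the 49 genes, with 59 start sites. Actb, Coro1b, Cyfip1, Nckap1l, Rac1 and Rac2 had no entry. Both strands were searched for the CArG box, for the TATA-box core TATAAA, for the GC-box core GGGCGG and for GAGGAA, a core bound by the myeloid factor PU.1. The GC-box and PU.1 cores can share a base at their ends. A CArG box was found in 4 of the 43 genes, which is 9.3%, beside 1.5% of the 9291 tested genes in the table and 1.8% of all 27025 genes. The TATA-box core was found in 11.6% of the 43 genes and 8.6% of tested genes, the GC-box core in 81.4% and 67.6%, and the PU.1 core in 37.2% and 31.0%. A match is a run of letters and not a measured site. The 4 promoters with a CArG box are shown because they hold both Actg1 and Myl6, which fell, and Vcl and Arpc4, which did not pass, with the box in capitals and all sequences read along the gene's strand. Myl6 has 2 listed start sites, and the box stands before the downstream one.
Actg1, chr11:120348446-120348745, minus strand: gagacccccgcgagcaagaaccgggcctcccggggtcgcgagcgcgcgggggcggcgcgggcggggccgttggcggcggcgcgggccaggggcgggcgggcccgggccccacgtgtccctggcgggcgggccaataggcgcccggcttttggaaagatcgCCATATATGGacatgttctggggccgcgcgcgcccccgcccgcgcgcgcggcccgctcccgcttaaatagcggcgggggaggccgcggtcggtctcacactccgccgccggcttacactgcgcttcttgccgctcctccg
Myl6, chr10:128492960-128493259, minus strand: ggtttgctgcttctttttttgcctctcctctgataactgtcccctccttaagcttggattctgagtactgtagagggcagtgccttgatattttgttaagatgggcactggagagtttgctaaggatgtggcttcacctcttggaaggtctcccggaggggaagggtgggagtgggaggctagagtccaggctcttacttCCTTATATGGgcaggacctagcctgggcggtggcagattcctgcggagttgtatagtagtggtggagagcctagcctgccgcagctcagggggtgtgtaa
Vcl, chr14:20929148-20929447, plus strand: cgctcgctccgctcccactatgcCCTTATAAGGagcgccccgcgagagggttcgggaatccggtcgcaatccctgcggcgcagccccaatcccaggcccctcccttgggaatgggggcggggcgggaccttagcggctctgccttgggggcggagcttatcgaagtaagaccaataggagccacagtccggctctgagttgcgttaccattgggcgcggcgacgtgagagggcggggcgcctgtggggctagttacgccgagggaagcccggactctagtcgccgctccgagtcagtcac
Arpc4, chr6:113377863-113378162, plus strand: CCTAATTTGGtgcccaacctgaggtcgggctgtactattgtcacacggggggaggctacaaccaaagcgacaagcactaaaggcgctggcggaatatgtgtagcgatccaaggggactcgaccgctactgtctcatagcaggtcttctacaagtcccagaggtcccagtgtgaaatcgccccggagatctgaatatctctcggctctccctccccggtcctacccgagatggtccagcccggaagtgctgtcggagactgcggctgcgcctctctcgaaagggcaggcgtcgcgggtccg

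The boxes began 90, 50, 227 and 250 bases before the start site in that order. Srf itself stood at 34.3 and 38.4 CPM in aged and 37.7 and 36.2 CPM in young libraries (-0.027 ± 0.097, edgeR adjusted p = 0.908), and its coactivator gene Mkl1 at 194 and 208 against 213 and 195 CPM (adjusted p = 0.888). Among the 6 listed genes of the SRF axis 4 were tested and none passed. Their log2 changes ran from -0.55 to 0.0029.

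Other genes of the same machinery were also examined. Of 134 further genes listed, 121 were tested, of which 5 rose and 4 fell, with a median log2 change of 0.0041. The calls are 7.44% of the 121, beside 5.77% of all tested genes, and 8 of the 84 at 50 CPM or more (9.52%), beside 10% of tested genes at that level. The largest rise was that of Abi3, an Abi-family adaptor of a WAVE-type complex, at 16.0 and 15.6 CPM in aged against 7.61 and 6.87 CPM in young libraries (1.11 ± 0.14, edgeR adjusted p = 0.00157). It passed with each library left out. Rnd3 stood at 168 and 160 CPM against 112 and 129 CPM (0.45 ± 0.078, adjusted p = 0.00922). The membrane-linked myosin Myo1c (0.35 ± 0.065, adjusted p = 0.0124), the small Cdc42 effector Cdc42se2 (0.26 ± 0.057, adjusted p = 0.0257) and the kinase Pak1, an effector of Rac and Cdc42 (0.33 ± 0.075, adjusted p = 0.0318), rose too.

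The falls were those of Sptbn1, Ssh2, Cap1 and Tiam1. Sptbn1, the beta-spectrin of the membrane skeleton, stood at 127 and 124 CPM in aged against 170 and 168 CPM in young libraries (-0.43 ± 0.062, adjusted p = 0.00298), and it passed with each library left out. Ssh2, a phosphatase that activates cofilin, stood at 376 and 361 CPM against 450 and 462 CPM (-0.31 ± 0.054, adjusted p = 0.00968). Cap1, which recycles actin monomers, stood at 203 and 182 CPM against 277 and 235 CPM (-0.41 ± 0.085, adjusted p = 0.0203), and Tiam1, an exchange factor for Rac, at 51.5 and 53.3 CPM against 64.7 and 65.2 CPM (-0.31 ± 0.078, adjusted p = 0.0472). Without young replicate 1, Rnd3 (0.0936), Myo1c (0.0863), Cdc42se2 (0.217), Pak1 (0.206), Ssh2 (0.0557), Cap1 (0.188) and Tiam1 (0.254) did not pass. Myo1c (0.0654), Cdc42se2 (0.0727), Pak1 (0.124) and Tiam1 (0.172) also missed without young replicate 2, Cap1 (0.0576), Pak1 (0.0928) and Tiam1 (0.0702) without aged replicate 2, and Tiam1 (0.0904) without aged replicate 1. With GC content and length offsets Ssh2 did not pass (-0.17, adjusted p = 0.107). Tiam1 also missed with those offsets (0.0823), with upper-quartile scaling (0.0555), with library size alone (0.0549) and with DESeq2 (0.061). Among 12 tested genes of adhesion linkers such as talin and kindlin-3 none passed.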

How the data were processed

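Each library has a deposited table of whole-number counts by gene symbol, not normalized. As tools, the submitters' processing notes list STAR 2.5.3, HTSeq, cutadapt and DESeq2 without their roles, and mm10 as build. Per the labels' protocols, libraries were made from oligo-dT selected RNA and are strand-specific. For the counting, annotation and strand setting were not given in the sources used here.

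Low counts were removed with filterByExpr (minimum count 10, minimum total 15, by age), and the remaining genes were scaled with TMM factors and tested two-sided with edgeR's quasi-likelihood test over all genes. Standard errors follow from the log2 change and the root of F. edgeR 4.0.16 ran under R 4.3.3, with limma 3.58.1 and DESeq2 1.42.0 as alternatives, after a check on simulated data. Zero counts allow a level of up to 3 counts, or 0.0875 to 0.149 CPM.

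The genes and lists were chosen with earlier results of these data known, so no list test is given. Full values are given for genes past the threshold, for Actb, Actg1, Tmsb4x, Pfn1, Cfl1, Vcl and Flna, and for the gene of each role with the smallest p; other actin genes past the threshold with the smallest p are named, up to 6 per direction. Values of other genes of the group are given so that all 49 are accounted for. Alternatives were other scalings, filters, DESeq2, limma-voom, a replicate block, GC and length offsets, and leaving out each library. Gp1bb, Srf and Mkl1 were named after their values were seen. The 2 most abundant genes were Fn1 and F13a1 of the classical, Itgal and Cx3cr1 of the non-classical, Ighm and Igkc of the B-lineage, Zfp36 and Junb of the early response and Itga2b and Ppbp of the platelet list. Results of the other marker lists were that, of the genes tested, 3 of 10 monocyte identity genes rose and 1 fell (Lyz2 and Ccr2 most abundant), 2 of 11 neutrophil genes rose and 4 fell (S100a9, S100a8), 1 of 9 erythroid (Hbb-bs, Hba-a1), 4 of 10 dendritic (Cd209a, Tcf4) and 2 of 9 macrophage genes (Slc40a1, Adgre1) rose, and none of 9 T and NK genes (Nkg7, Cd3d) passed. Coordinates, exons and transcripts are from GENCODE M21 (GRCm38, the assembly of mm10). Myl12b has 2 loci of that name, of which 1 was used. Coding sequences were aligned globally, using the most alike complete pair. The summary of 1 gene group is not reported here.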

Additional observations from a re-analysis of the deposited data

How the results depend on the processing

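Each age has 2 libraries, and 48 of the 49 genes had a mean of at least 50 CPM. The main results were 1 gene higher and 4 lower in the group, and 5 higher and 4 lower among 121 other actin genes. Genes higher in the group numbered 2 with upper-quartile scaling, with genes of at least 5 CPM, with limma-voom and with GC content and length offsets (chosen after seeing the data), where the last also gave a median of -0.021 and upper-quartile scaling one of 0.0093. Without a low-count filter 6 rose and 10 fell, and 10 and 11 among the other genes. The 6 were Arpc1b, Arpc2, Coro1b, Ezr, Gsn and Pfn1. The 10 were Actg1, Actr2, Flna, Myh9, Myl6, Tmsb10, Tmsb4x, Was, Wasf2 and Wipf1. The share of all tested genes called in the same fit is not given here, so these counts are not read as particular to the group. With each library left out, 0 to 4 rose and 1 to 9 fell in the group, 1 to 8 rose and 1 to 8 fell among the others, and the median ran from -0.010 to 0.011. Without young replicate 1, the deepest library, 0 rose and Actr2 alone fell. Flna did not pass with upper-quartile scaling (adjusted p = 0.0545), with factors computed without the group (0.0515), with genes of at least 5 CPM (0.0565) or with the offsets (0.0514). The difference in summed share was -0.17 points without the 20 most abundant other genes and -0.12 points without Actb (added after seeing the data), beside -0.15 points, and ran from -0.57 to 0.28 with each library left out.

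With the replicate number as a replicate block 6 genes rose and 12 fell in the group, and 12 and 16 among the others. The share of all tested genes called under each alternative is not given here. No count of calls under an alternative is therefore read as particular to the group. The numbers are not stated to pair samples, so this fit is not read as paired. Deviations of same-numbered libraries correlated at 0.0937 over all tested genes, which does not settle the matter for single genes. Genes that were not called and lie near 0 changed sign under single settings. These were Arpc1a (0.0010) and Capza1 (0.0093) with upper-quartile scaling, Capza1 with library size alone (0.00012), Actb with limma-voom (0.064) and with the replicate block (0.033), and Cfl1 (-0.033), Arpc4 (-0.021), Arpc5 (-0.0098), Rac2 (-0.064) and Dock2 (0.051) with the offsets. With each library left out the log2 change ran from -0.43 to 0.52 for Actb, -0.046 to 0.078 for Cfl1, -0.047 to 0.026 for Arpc1a, -0.013 to 0.048 for Arpc4, -0.016 to 0.023 for Arpc5, -0.058 to 0.0021 for Actr3, -0.038 to 0.029 for Capza1, -0.076 to 0.0025 for Capg, -0.10 to 0.062 for Coro1a, -0.14 to 0.011 for Coro1c, -0.035 to 0.076 for Cyfip1, -0.14 to 0.00029 for Nckap1l, -0.096 to 0.0044 for Brk1, -0.40 to 0.050 for Vasp, -0.062 to 0.0013 for Myl12a, -0.027 to 0.070 for Rdx, -0.019 to 0.027 for Rac2, -0.058 to 0.015 for Cdc42 and -0.088 to 0.037 for Dock2. The cause of these shifts was not tested.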
